A study of Mus musculus with 29 samples.

Results

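The comparison was between mice switched from an obesogenic diet to a calorie-restricted Mediterranean-style diet (MCR, 4 libraries) and mice switched to a low-fat diet eaten without restriction (LFD, 5 libraries). The 9 libraries were taken by the treatment field of the labels out of 29, and all genes passing a filter on low values were tested. The MCR mice were wild-type C57BL/6N animals that were made obese on a 60% high-fat diet and then fed the Mediterranean-style diet at 30% fewer calories. The LFD mice were wild-type C57BL/6N animals with the same history of obesity that then received the low-fat diet with no limit on intake. Mice of both groups had received E0771 cells, a mouse mammary cancer line, in mammary fat pad 4 at week 25 after randomization, and the tissue sequenced was the tumor-free pad 9 of the opposite side at endpoint. All 9 libraries therefore came from hosts that carried a tumor elsewhere. The sample titles begin with the word tumor and the labels carry the name of the cell line, while the source field gives normal mammary tissue. The labels give no age, and the sources used here do not state the diets' composition, energy density or intake. MCR differed from LFD in both diet type and restriction, so the effects of restriction and diet type cannot be told apart in this contrast. The remaining groups were low-fat calorie-restricted mice (LFCR, 5), intermittently calorie-restricted mice (ICR, 5), mice kept obese (Obese, 5) and mice on the control diet (Control, 5).

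The mouse mammary fat pad is mostly white adipose tissue, through which a tree of luminal and basal epithelial ducts runs, and pads of the inguinal region usually enclose a lymph node. Adipocytes in such a pad make fatty acids from carbohydrate when energy is plentiful and release stored fat when it is scarce. Calorie restriction is known to raise the expression of lipid synthesis genes in white fat. The question set by the design was how a restricted Mediterranean-style diet and an unrestricted low-fat diet differ in the normal gland after obesity.

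The deposited table held variance-stabilised log2 values, from which whole reads were recovered, 16403903 to 49026986 per library over the 29 libraries. Values below are normalized counts, that is reads divided by the size factor of the library, given for MCR libraries 1 to 4 and LFD libraries 1 to 5. The numbers only name the libraries. Transcripts typical of the lymph node varied widely between libraries. Glycam1, a ligand for L-selectin made by the high endothelial vessels of lymph nodes, had 34.1, 11461, 52.8 and 1.52 counts in the MCR libraries, against 7.79, 7448, 11157, 6862 and 8621 in the LFD libraries. Ccl21a, the chemokine that brings T cells into the node, had 212, 16812, 100 and 255 counts in MCR, against 82.7, 8424, 9363, 5097 and 9952 in LFD. MCR libraries 1, 3 and 4 and LFD library 1 were thus low in both genes, and MCR library 2 was the highest of all 9. Libraries whose B cell list averaged under 9 on the log2 scale are called node-poor below and the others node-rich. The mean log2 value of the B cell list ran from 5.91 to 12.2 in MCR and from 5.93 to 11.6 in LFD, and all 12 B cell genes and all 17 T and NK cell genes tested had negative differences, none of which passed the test. The luminal epithelium list averaged 10.3 to 10.5 in MCR and 10.1 to 12 in LFD, where library 1 was the highest and library 2 the lowest. The skeletal muscle list averaged 4.80 to 8.03 in MCR and 5.09 to 10.1 in LFD. In bulk tissue, fewer cells of a type and less RNA per cell cannot be told apart. The part of lymph node, epithelial and muscle content in the results was tested only through covariates. Adipoq, the adiponectin gene of adipocytes, had 33002 to 93337 counts in MCR and 42737 to 63541 in LFD, with a log2 difference of 0.23 ± 0.30 that did not pass (adjusted p = 0.686, limma).

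**Figure D1:**
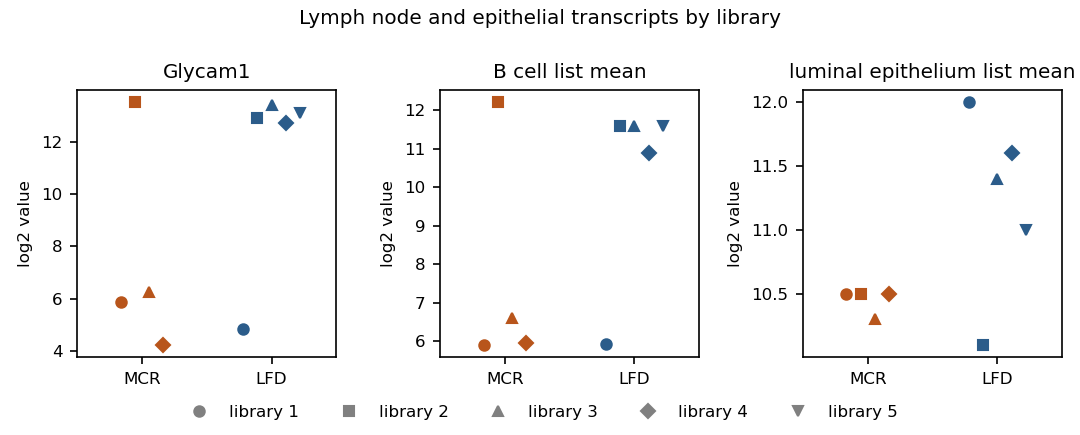
Log2 values of Glycam1 and mean log2 values of the B cell and luminal epithelium lists (y axes) in the 4 MCR and 5 LFD libraries, 1 point each. MCR libraries 1, 3 and 4 and LFD library 1 lie between 5.91 and 6.61 for the B cell list, and the luminal list spans 10.1 to 12 in LFD but 10.3 to 10.5 in MCR.

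Between MCR and LFD pads, 57 of 19387 genes changed (0.294%), 32 higher (0.165%) and 25 lower (0.129%) in MCR, by limma on all 29 libraries with a Benjamini-Hochberg adjusted p under 0.05. The genes that rose included the transferrin receptor Tfrc, the mitochondrial biogenesis coactivator Ppargc1a, the cannabinoid receptor Cnr1 and the growth factor gene Egf. The genes that fell included the interferon-stimulated Oas2 and Ifi44, the IGF-binding-protein protease Pappa, the TGF-beta-responsive Pmepa1 and the carnitine acyltransferase Cpt1a. The libraries of MCR and LFD did not overlap in 30 of the 32 genes that rose and 22 of the 25 that fell, while 589 of all genes (3.04%) had non-overlapping libraries, 334 higher in MCR (1.72%) and 255 lower (1.32%). Quantile normalization moved the balance to 104 genes higher and 21 lower. The count rested on single libraries: without MCR library 1, 3 or 4 it was 9, 3 or 17, without LFD library 1, 3 or 4 it was 11, 8 or 10, and without MCR library 2 or LFD library 2 it was 2747 or 319. A fit on the 9 libraries alone called 0 genes (2289 at an unadjusted limma p under 0.05), and so did a fit with the luminal epithelium mean as a covariate (3084 at that level), in which the adjusted p of the 57 genes ran from 0.0797 to 0.286. In that fit the log2 difference was 0.78 for Strip2, 0.93 for Pard6g, -1.14 for Oas2 and -1.04 for Ifi44. With the skeletal muscle mean as a covariate 12 of the 57 genes passed. With sequencing lane as a term 17 of the 57 passed, among them Strip2, Pard6g, Tfrc, Oas2, Ifi44, Pappa, Pmepa1 and Plch2, whereas Cldn22 (limma adjusted p of 0.0607), Egf and Cnr1 (0.087 each), Ppargc1a (0.104), Fcrls (0.103), Akr1cl (0.113), Aldh1a2 (0.0766) and Cpt1a (0.087) did not.

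Among the genes that rose, Strip2 and Pard6g were the most stable. Strip2, a component of the striatin-interacting phosphatase and kinase complex, had 1223, 1498, 1301 and 1416 counts in MCR, against 448, 834, 616, 679 and 712 in LFD. Every MCR library was above every LFD library, including the node-rich MCR library 2. The log2 difference was 1.04 ± 0.16 (SE), with a limma adjusted p of 0.0059. Pard6g, a member of the PAR6 family of cell polarity proteins, had 911, 675, 1124 and 812 counts in MCR and 412, 447, 354, 462 and 550 in LFD. The groups again did not overlap, and the log2 difference was 0.93 ± 0.14 with a limma adjusted p of 0.0059. These 2 genes and the unnamed gene model Gm2666, which was singled out after its values were seen and fell by 1.22 on the log2 scale, were the only 3 of the 57 that passed with each of the 9 libraries left out in turn. Strip2 averaged 1359 ± 122 counts in MCR (SD, n = 4) and 658 ± 142 in LFD (n = 5), beside 1729 ± 272 in LFCR and 1190 ± 230 in ICR (n = 5 each). Its difference from the mean of LFCR and ICR was -0.06 ± 0.15 with a limma adjusted p of 0.918.

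Receptors and metabolic regulators were the next group. Tfrc, which takes up transferrin-bound iron, had 1657, 1826, 1905 and 1441 counts in MCR and 831, 1229, 1028, 992 and 914 in LFD (0.76 ± 0.16, adjusted p = 0.0357, limma). Cnr1, the receptor for endocannabinoids, had 969, 529, 1018 and 1247 counts in MCR and 291, 345, 331, 365 and 374 in LFD. The LFD values were tightly grouped below all MCR values (1.34 ± 0.27, adjusted p = 0.0336, limma). Ppargc1a, a coactivator that drives mitochondrial biogenesis in several tissues, had 1059, 434, 1059 and 1225 counts in MCR, against 280, 313, 257, 334 and 383 in LFD. Its log2 difference was 1.43 ± 0.30 with a limma adjusted p of 0.0357. MCR library 2, the node-rich one, was the lowest MCR library for both Cnr1 and Ppargc1a. With Glycam1 as a covariate both differences became 1.06 ± 0.26, with limma adjusted p-values of 0.0233 and 0.0267. Both of these calls were lost without MCR library 1, 3 or 4 or LFD library 1, and that of Ppargc1a also without LFD library 3. The adjusted p was then up to 0.158 for Cnr1 and 0.186 for Ppargc1a (limma).

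Cldn22, a claudin of the tight junction family, showed the largest difference among the named genes that rose. It had 523, 234, 535 and 415 counts in MCR and 41.9, 175, 32.8, 81.2 and 104 in LFD (2.11 ± 0.38, adjusted p = 0.0172, limma). Cldn22 overlaps Wwc2 on the opposite strand in the GENCODE vM21 annotation, and the sources used here do not state the strand setting of the counting, so reads of the pair may be mixed. Egf, a ligand of the epidermal growth factor receptor, had 151, 159, 282 and 205 counts in MCR and 114, 117, 107, 114 and 100 in LFD (0.69 ± 0.15, adjusted p = 0.0357, limma). The LFD libraries spanned only 100 to 117 counts. Lrrc4c, Fbxo45 and Ppp4r4 also rose. Their log2 differences were between 0.67 and 1.34. Among the smaller differences was Cox15, which makes the heme A of cytochrome oxidase and was chosen after its values were seen (0.46 ± 0.09, adjusted p = 0.0336, limma).

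**Figure D2:**
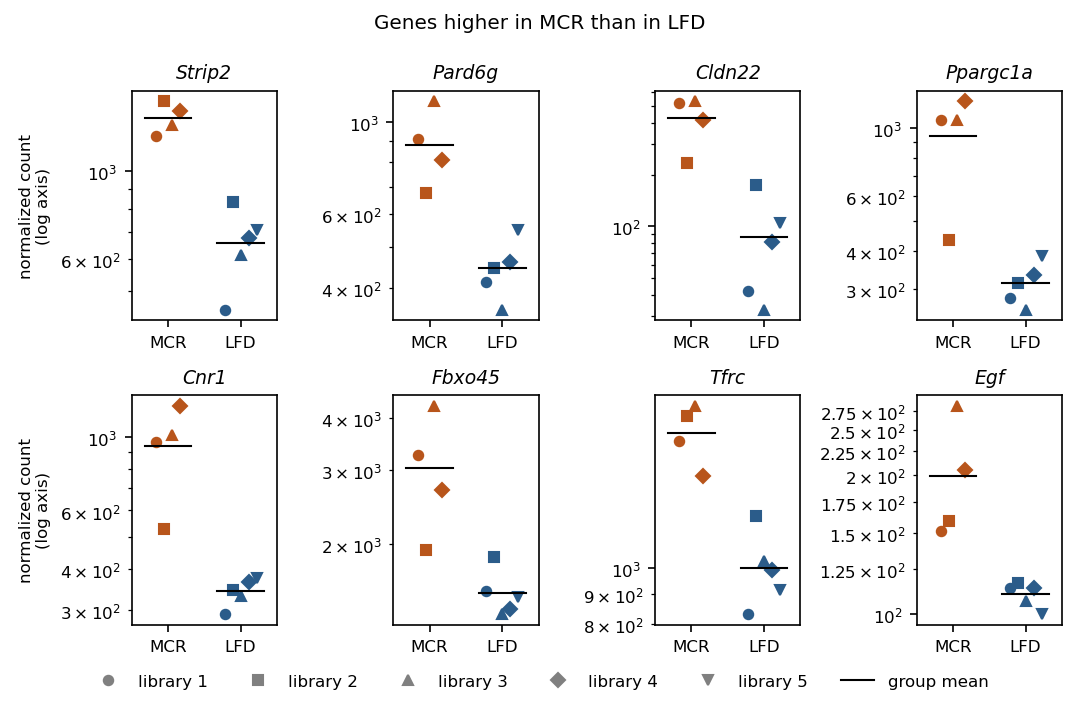
Normalized counts on log axes for 8 genes that rose in MCR (left in each panel, 4 libraries) against LFD (right, 5 libraries), with a line at the group mean. In each panel every MCR point lies above every LFD point. MCR library 2 (square) is the lowest MCR point for Cnr1, Ppargc1a, Cldn22, Fbxo45 and Pard6g.

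Among the genes that fell, the interferon-stimulated genes were represented by Oas2 and Ifi44. Type I interferon signalling induces a set of antiviral genes through a promoter element called the interferon-stimulated response element, which holds the bases GAAA, then 2 of any kind, then GAAA again. Oas2, an oligoadenylate synthetase that makes the messenger activating RNase L, lies on chromosome 5 from 120730333 to 120749853, minus strand (mm10). It had 461, 587, 450 and 556 counts in MCR, against 1469, 859, 1436, 1965 and 1461 in LFD. The groups did not overlap. The log2 difference was -1.40 ± 0.26 with a limma adjusted p of 0.0172. Ifi44, an interferon-induced gene linked to antiviral states, lies on chromosome 3 from 151730922 to 151749960, minus strand. It had 155, 175, 143 and 345 counts in MCR and 627, 290, 515, 938 and 561 in LFD. MCR library 4 lay above LFD library 2, so the groups overlapped by 1 library of each. The log2 difference was -1.40 ± 0.29 with a limma adjusted p of 0.0336. Oas2 averaged 514 ± 68.6 counts in MCR and 1438 ± 392 in LFD, beside 519 ± 160 in LFCR and 708 ± 151 in ICR, and differed from the mean of LFCR and ICR by -0.20 ± 0.22 (adjusted p = 0.807, limma). For Ifi44 the averages were 205 ± 94.5 counts in MCR, 586 ± 234 in LFD, 164 ± 24.2 in LFCR and 188 ± 56.0 in ICR.

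Of the 34 interferon-stimulated genes tested, 2 fell (Oas2 and Ifi44) and 0 rose, beside 0.129% of all genes that fell. The median log2 difference of the list was -0.611, beside -0.026 over all genes tested, and 32 of the 34 differences were negative. Libraries did not overlap for 6 of the 34, all lower in MCR, beside 1.32% of all genes in that direction. The mean log2 value of the list was 9.37 to 9.89 in MCR and 9.96 to 10.8 in LFD. With Glycam1 as a covariate 5 of the 34 fell, beside 2.40% of all genes, and with Ccl21a also 5, beside 0.944% of all genes. With Glycam1 the additional genes were Oasl2, Oas1g and Oas1a. Oasl2, an oligoadenylate synthetase-like protein, had 1014 to 1528 counts in MCR and 1558 to 4268 in LFD, with a log2 difference of -1.29 and a limma adjusted p of 0.0126 in that fit. Oas1g had 50.3, 49.3, 52.8 and 101 counts in MCR and 200, 84.6, 154, 306 and 129 in LFD, with -1.38 ± 0.27 and an adjusted p of 0.00818 (limma). Oas1a had 162, 281, 208 and 399 counts in MCR and 493, 387, 561, 866 and 559 in LFD, with -1.10 ± 0.27 and an adjusted p of 0.0282 (limma). The Oas1a call was lost without MCR library 1 or 3 or LFD library 1, 3 or 4 (adjusted p of up to 0.0812, limma). Oas1a and Oas1g are close paralogs, so reads may be split between them. Not every member was lower: Ifi27 averaged 8902 counts in MCR and 6897 in LFD, with a log2 difference of 0.42 ± 0.33 that did not pass (adjusted p = 0.503, limma).

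The promoters of these 2 paralogs show the element. The sequences are the 100 bases before the start of each gene in the RefSeq promoter table (build GRCm38.p6), 5′ to 3′ on the gene strand, at chr5:120907526-120907625 for Oas1a and chr5:120887614-120887713 for Oas1g, both minus strand, with 2 overlapping matches to this motif in capitals.
Oas1a: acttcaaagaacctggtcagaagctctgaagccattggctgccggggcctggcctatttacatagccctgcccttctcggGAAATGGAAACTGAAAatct
Oas1g: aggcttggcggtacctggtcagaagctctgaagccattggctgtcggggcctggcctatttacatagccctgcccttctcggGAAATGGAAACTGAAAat
Over the window of 250 bases before to 50 after the start, searched on both strands, 14 of the 23 interferon-stimulated genes found in the table had a match in 1 or more promoters (60.9%), against 4.0% of the 12676 tested genes in the table and 3.44% of its 32851 single promoters. The window of Ifi44 held no match, and Oas2 was not in the table. A match is a description of the sequence and says nothing of the factor bound in these pads.

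The other genes that fell had varied roles. Pappa, a protease that frees IGF from its binding protein, had 42.6, 71.2, 54.9 and 85.6 counts in MCR, against 654, 233, 159, 154 and 146 in LFD. LFD library 1 was the highest, and the remaining LFD libraries were also above all MCR libraries (-1.54 ± 0.30, adjusted p = 0.0336, limma). Pmepa1, a TGF-beta-induced inhibitor of SMAD signalling, had 2701, 1593, 1341 and 2751 counts in MCR and 4522, 3692, 5012, 5010 and 6732 in LFD (-1.28 ± 0.27, adjusted p = 0.0336, limma). Pmepa1 averaged 2097 ± 734 counts in MCR, 4994 ± 1111 in LFD, 3126 ± 824 in LFCR and 6567 ± 1753 in ICR. Fcrls, a scavenger receptor of the Fc receptor-like family found on resident macrophages and microglia, had 239, 109, 359 and 262 counts in MCR and 723, 563, 766, 788 and 619 in LFD (-1.50 ± 0.31, adjusted p = 0.0336, limma). None of the 17 genes of the macrophage list passed, and their median log2 difference was -0.553. Adgre1, which encodes F4/80, averaged 745 counts in MCR and 1241 in LFD (-0.72 ± 0.29, adjusted p = 0.211, limma).

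Aldh1a2, which makes retinoic acid, had 24.7, 47.4, 57.0 and 44.7 counts in MCR and 145, 134, 141, 140 and 115 in LFD (-1.27 ± 0.25, adjusted p = 0.0336, limma). Its LFD libraries lay within 115 to 145 counts, all above the MCR libraries. Akr1cl, an aldo-keto reductase family member, had the largest difference of the named genes that fell, with 10.2, 135, 4.14 and 10.6 counts in MCR and 1768, 207, 449, 1050 and 186 in LFD (-3.62 ± 0.79, adjusted p = 0.0409, limma). Ptprt, Lonrf2, Plch2, Ephb1 and Tnfrsf21 also fell, with log2 differences between -1.27 and -0.82. Hspa8, the constitutive HSC70 chaperone, was chosen after its values were seen and fell by 0.60 on the log2 scale (SE 0.13, adjusted p = 0.0357, limma) at a mean of 30400 counts over both groups.

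**Figure D3:**
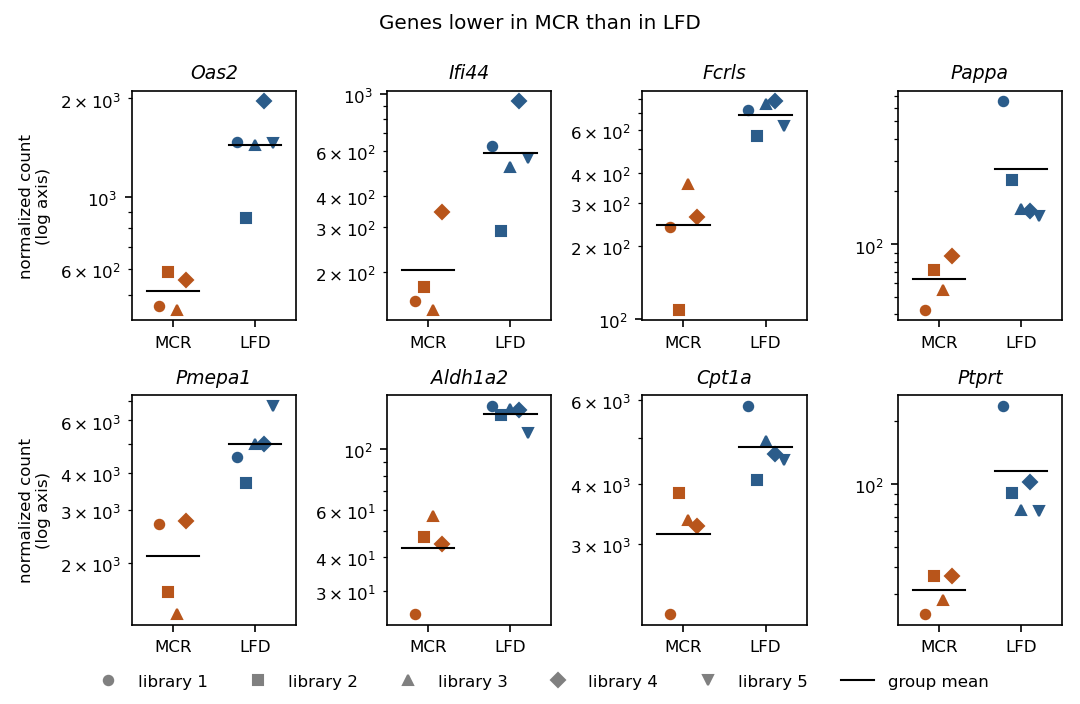
Normalized counts on log axes for 8 genes that fell in MCR (left in each panel, 4 libraries) against LFD (right, 5 libraries), with a line at the group mean. The groups do not overlap except for Ifi44, where MCR library 4 at 345 counts lies above LFD library 2 at 290 counts.

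The genes of lipid synthesis had higher values in MCR but varied widely between libraries. All 25 genes of fatty acid synthesis tested had positive log2 differences, with a median of 1.07 beside -0.026 over all genes, and 0 passed the test in either direction. Fasn, the fatty acid synthase, had 787471, 245120, 518654 and 174806 counts in MCR, against 19683, 159290, 64904, 284163 and 363446 in LFD. The groups overlapped, and LFD library 1 was the lowest (1.65 ± 0.86, adjusted p = 0.323, limma). Acss2, which makes acetyl-CoA from acetate, averaged 13440 counts in MCR and 3993 in LFD (1.85 ± 0.71, adjusted p = 0.193, limma). Mid1ip1, a regulator of acetyl-CoA carboxylase, came closest to the threshold (0.84 ± 0.22, adjusted p = 0.0839, limma). The list averaged 13.0 to 14.5 on the log2 scale in MCR and 11.6 to 13.5 in LFD.

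The 22 genes of the cholesterol list had a median log2 difference of 0.716, and 21 were positive. Msmo1, a sterol demethylase, had 1513, 759, 1158 and 1204 counts in MCR and 761, 729, 557, 705 and 538 in LFD (0.76 ± 0.17, adjusted p = 0.0561, limma). With Glycam1 as a covariate 3 of the 22 rose, beside 1.18% of all genes. Among them were Msmo1 (0.58, adjusted p = 0.0457, limma) and the mevalonate pathway gene Mvd (0.74, adjusted p = 0.0470, limma). The Msmo1 call was lost without MCR library 1, 3 or 4 or LFD library 1, 3, 4 or 5 (adjusted p of up to 0.141, limma).

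Mitochondrial genes were likewise positive without calls. All 48 genes of oxidative phosphorylation had positive differences, between 0.31 (Atp5g1) and 0.81 (Atp5g3), with a median of 0.542, and 0 passed. All 18 genes of the citrate cycle and pyruvate entry were positive, with a median of 0.551, and 0 passed. All 19 genes of branched-chain amino acid breakdown were positive, with a median of 0.490, and 0 passed. Bcat2, the mitochondrial aminotransferase that opens that pathway, had 4261, 2523, 6032 and 4182 counts in MCR, against 928, 2277, 1935, 2080 and 2307 in LFD. The groups did not overlap, though the lowest MCR and highest LFD libraries were close (1.15 ± 0.26, adjusted p = 0.0506, limma). It passed with Glycam1 (1.12 ± 0.28, adjusted p = 0.0283, limma) and with Ccl21a (1.09, adjusted p = 0.0398, limma) as a covariate. The Glycam1 call was lost without MCR library 1, 3 or 4 or LFD library 1 (adjusted p of up to 0.212, limma). MCR library 2, with the most lymph node RNA, had the lowest mean of its group for the lists of oxidative phosphorylation (11.75 on the log2 scale), citrate cycle (12.38) and branched-chain amino acid breakdown (11.25). The groups overlapped in all 3 lists: it lay below LFD libraries 4 and 5 in the first and second and below LFD libraries 2 to 5 in the last. The mature adipocyte list had a median of similar size, 0.468, with 20 of 22 genes positive and 0 passing. With Glycam1 as a covariate its median was 0.223, beside 0.478, 0.413 and 0.311 for the 3 lists. The part of adipocyte content in these differences was not tested.

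In the lists of fat burning and fasting, 1 gene fell without a covariate. Of 23 genes of fatty acid oxidation and ketone formation, 1 fell (Cpt1a) and 0 rose, beside 0.129% of all genes that fell. The median difference of the list was 0.215. Cpt1a, which joins long-chain fatty acids to carnitine for their entry into mitochondria, had 2140, 3840, 3361 and 3277 counts in MCR and 5843, 4080, 4919, 4628 and 4494 in LFD (-0.62 ± 0.13, adjusted p = 0.0367, limma). The groups did not overlap. Of 17 genes of the fasting and glucocorticoid response 0 passed without a covariate, with a median of -0.485, and 3 had libraries that did not overlap, all lower in MCR, beside 1.32% of all genes in that direction. Pdk4, the kinase that shuts pyruvate dehydrogenase in fasting, had 2223, 1317, 3167 and 3039 counts in MCR, against 10947, 3433, 6453, 9411 and 9333 in LFD. All MCR libraries were below all LFD libraries (-1.66 ± 0.43, adjusted p = 0.0843, limma). Zbtb16, a glucocorticoid-induced zinc finger factor, had 979, 520, 2148 and 2394 counts in MCR and 3871, 4280, 5404, 3105 and 2620 in LFD (-1.53 ± 0.42, adjusted p = 0.0974, limma). Klf15, also a glucocorticoid target, had a positive difference that did not pass (0.76 ± 0.32, adjusted p = 0.231, limma). Of 13 genes of the thermogenic adipocyte list, 1 rose (Ppargc1a) and 0 fell, beside 0.165% of all genes that rose. Ucp1, the uncoupling protein of brown and beige fat, had 34.1, 34.7, 7.25 and 3.03 counts in MCR and 1.95, 25.6, 621, 2484 and 2879 in LFD, so that 3 LFD libraries stood far above all the others (-3.17 ± 1.19, adjusted p = 0.183, limma).

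**Figure D4:**
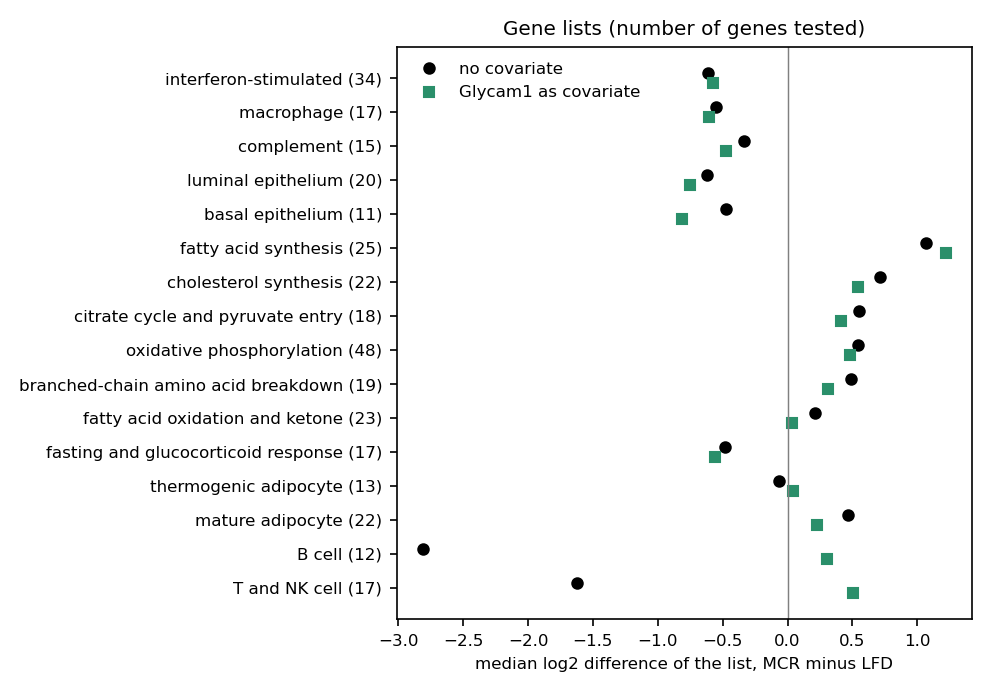
Median log2 difference, MCR minus LFD, of 16 gene lists without a covariate (circles) and with Glycam1 as a covariate (squares), with the number of genes tested in each. The medians of the B cell and T and NK cell lists were -2.81 and -1.62 without the covariate and 0.305 and 0.506 with it, while those of the interferon-stimulated (-0.611 and -0.575) and fatty acid synthesis lists (1.07 and 1.22) kept their sign.

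Cyp2f2 and Dmbt1 had large differences that did not pass without a covariate. Cyp2f2, a cytochrome P450 best known from the club cells of the airway, lies on chromosome 7 from 27119909 to 27133660, plus strand. It had 2613, 1844, 2946 and 2026 counts in MCR, against 173, 1198, 1176, 1348 and 781 in LFD. The groups did not overlap, and LFD library 1 stood far below its group. The log2 difference was 1.55 ± 0.45 with a limma adjusted p of 0.102. It rose with Glycam1 (1.95 ± 0.43, adjusted p = 0.0150, limma) and with Ccl21a (1.80 ± 0.44, adjusted p = 0.0374, limma) as a covariate, and without LFD library 1 the adjusted p with Glycam1 was 0.121. Its averages were 2357 ± 512 counts in MCR, 935 ± 475 in LFD, 3666 ± 1222 in LFCR and 3693 ± 1406 in ICR, and MCR differed from the mean of LFCR and ICR by -0.59 ± 0.39 (adjusted p = 0.670, limma). Dmbt1, a secreted scavenger glycoprotein of mucosal epithelia, lies on chromosome 7 from 131032053 to 131121630, plus strand, and overlaps Fgfr2 on the opposite strand. It had 1670, 3979, 848 and 2855 counts in MCR and 18945, 12193, 18235, 32652 and 10930 in LFD. The highest MCR library was below the lowest LFD library, yet the log2 difference of -3.08 ± 0.81 did not pass (adjusted p = 0.0867, limma), nor did it with Glycam1 (-2.91 ± 0.88, adjusted p = 0.0613, limma) or Ccl21a (-2.99, adjusted p = 0.0654, limma). Its averages were 2338 ± 1369 counts in MCR, 18591 ± 8625 in LFD, 1963 ± 644 in LFCR and 2143 ± 2088 in ICR. With the luminal epithelium mean as a covariate its difference was -1.83 (adjusted p = 0.30, limma).

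Of 20 luminal epithelial genes 0 passed, with a median log2 difference of -0.619 and 19 negative values, and of 11 basal epithelial genes 0 passed, with a median of -0.472 and 11 negative values. The luminal gene Areg, a ligand of the EGF receptor that acts in ductal growth, had 29, 47.4, 5.18 and 36.4 counts in MCR and 1313, 15, 402, 1062 and 331 in LFD. LFD library 2, whose luminal mean was the lowest, was below 3 of the MCR libraries (-2.98 ± 0.93, adjusted p = 0.126, limma).

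Because lymph node transcripts varied between libraries, the comparison was refitted with the log2 value of Glycam1 as a covariate. In that fit 695 of 19386 genes changed (3.59%), 229 higher (1.18%) and 466 lower (2.40%) in MCR, and all 57 genes called without it were among them. With Ccl21a in its place 291 changed (1.5%), 108 higher (0.557%) and 183 lower (0.944%), again with all 57. Of the 57 genes, 52 had groups that did not overlap, which fixes their direction within a lane. Within the 3 sequencing lanes that held a library of each group, the direction of the 695 genes, which were chosen on these same libraries, held for 99.9% in lane 6, where both libraries were node-poor, in 99.7% in lane 4, where both were node-rich, and in 74.1% in lane 2, where MCR library 4 was node-poor and LFD library 4 node-rich. With the luminal epithelium mean added to Glycam1 the count was 63, 5 higher and 58 lower. On the 9 libraries alone the Glycam1 fit called 0 genes (3394 at an unadjusted limma p under 0.05), and the Ccl21a fit also 0 (3319). Without LFD library 1, the only node-poor LFD library, the count was 172 in the Glycam1 fit and 8 in the Ccl21a fit. The Glycam1 count was 254, 291 or 367 without MCR library 1, 3 or 4. It was 318 or 306 without LFD library 3 or 4, and 1122 without LFD library 2.

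In the Glycam1 fit, genes of the fasting and immediate early lists fell. Pdk4 fell with Glycam1 (-2.18 ± 0.38, adjusted p = 0.00521, limma) and passed with each library left out. Zbtb16 fell as well (-1.88 ± 0.41, adjusted p = 0.0146, limma), but not without MCR library 2 (adjusted p = 0.0832). In all, 5 of the 17 fasting and glucocorticoid genes fell and 0 rose: Pdk4, Zbtb16, Sgk1, Cdkn1a and Angptl4, beside 2.40% of all genes that fell in this fit. Sgk1, a serum- and glucocorticoid-regulated kinase, had 1337, 2000, 2050 and 1607 counts in MCR and 3865, 2582, 3292, 3127 and 2419 in LFD (-0.89 ± 0.23 with Glycam1, adjusted p = 0.0349, limma). That call was lost without MCR library 1, 3 or 4 or LFD library 1, 3 or 4, with an adjusted p of up to 0.129. Of 12 immediate early genes, Fos, Jun and Atf3 fell with Glycam1 and 0 rose. Only Jun passed with each library left out (adjusted p of up to 0.0387, limma). With 1 library left out, Fos passed only without LFD library 2 (adjusted p of up to 0.16, limma). Atf3 was lost without MCR library 1 or 3 or LFD library 1, 3 or 4 (adjusted p of up to 0.0816, limma). Jun, a subunit of the AP-1 factor, had 1767, 1215, 1067 and 1778 counts in MCR and 2855, 1523, 2294, 1871 and 1900 in LFD (-0.85 ± 0.18, adjusted p = 0.0113, limma). Its libraries overlapped, with MCR libraries 1 and 4 above LFD library 2. Such genes are also known to respond to how tissue is taken, and the sources used here do not state collection times. Of 23 collagen and matrix genes 1 fell, Postn, and 0 rose, a share near that of all genes. Postn, which encodes periostin, had 9522, 7009, 14875 and 7793 counts in MCR and 50317, 9664, 15228, 17973 and 11765 in LFD (-1.29 ± 0.31, adjusted p = 0.0230, limma), with LFD library 1 far above the others, and did not pass without MCR library 1, MCR library 4 or LFD library 1 (adjusted p of up to 0.16). The luminal gene Prom1 had 286, 483, 369 and 407 counts in MCR and 2809, 573, 820, 1565 and 1142 in LFD (-1.82 ± 0.48 with Glycam1, adjusted p = 0.0342, limma), which do not overlap. Prom1 did not pass without MCR library 1, 3 or 4 or LFD library 1 or 4 (adjusted p of up to 0.172, limma). With the luminal mean as the covariate instead its difference was -0.53 (adjusted p = 0.348, limma). Prom1 is itself a member of the list behind that mean, so part of this shrinkage is built in. Lep, the leptin gene, did not pass in any of these fits and had 7396 to 25886 counts in MCR and 5516 to 41848 in LFD.

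**Figure D5:**
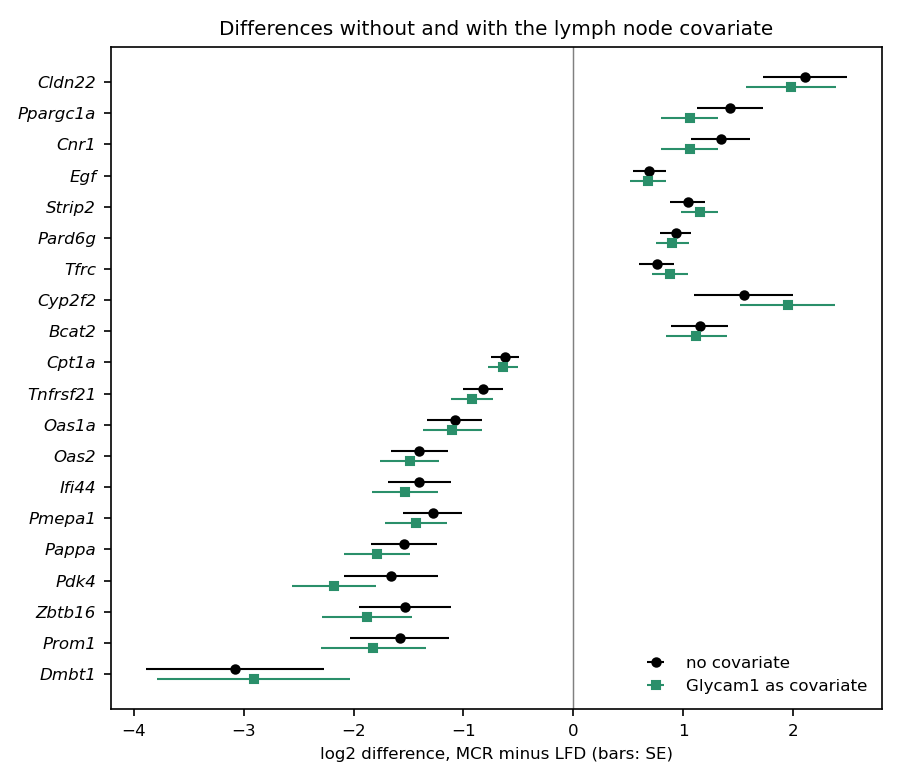
Log2 difference, MCR minus LFD, with its SE for 20 named genes, without a covariate (black circles) and with Glycam1 as a covariate (green squares). The sign is the same in both fits for each gene shown. Dmbt1 at -3.08 and Cldn22 at 2.11 are the extremes without the covariate.

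MCR was also set against the mean of the other restricted diets, LFCR and ICR, which shares the MCR libraries but not the LFD libraries. In this contrast 11 of 19387 genes changed (0.0567%), 4 higher (0.0206%) and 7 lower (0.0361%) in MCR. Of the 57 genes called against LFD, 1 was called here too. That gene was Egf, which averaged 199 ± 60.1 counts in MCR, 115 ± 18.3 in LFCR and 111 ± 24.1 in ICR, beside 110 ± 6.79 in LFD (0.68 ± 0.13 against LFCR and ICR, adjusted p = 0.0449, limma). Zbtb16, which was not among the 57 (adjusted p = 0.0974 against LFD, limma), fell in this contrast (-1.91 ± 0.37, adjusted p = 0.0449, limma). It averaged 1510 ± 904 counts in MCR, 4925 ± 3508 in LFCR and 6215 ± 3748 in ICR. The count was 0 without MCR library 1, 3 or 4 or LFD library 3 (1252, 1093, 1056 and 1542 at an unadjusted limma p under 0.05), 5 without LFD library 4 and 344 without MCR library 2. Cnr1 averaged 941 ± 300 counts in MCR, 568 ± 312 in LFCR and 377 ± 66.6 in ICR, beside 341 ± 32.8 in LFD (0.99 ± 0.24 against LFCR and ICR, adjusted p = 0.116, limma). The difference did not pass.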

How the data were processed

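Total RNA of 29 tumor-free mammary pads was extracted with TRIzol and sequenced as stranded total RNA libraries in paired reads of 76 bases on a HiSeq 2000, per the labels' protocols. The submitters' processing notes name the mm10 build, TopHat2 2.0.7 and HTSeq 0.5.3p9, and name DESeq2 without a version. The sources used here do not state the annotation or how HTSeq was set. The deposited values are log2 values on a variance-stabilised scale for 30818 gene symbols, with a lowest value of 3.7513. Inverting that scale gave normalized counts, and 100% of them became whole reads (tolerance 0.01) after multiplying by a library size factor. The inversion was inferred from the values. Depth was 16403903 to 49026986 reads, so precision is lowest in the shallow lane 4 libraries.

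Groups followed the treatment label. The test was limma 3.58.1 (trend and robust moderation, with statmod 1.5.0, R 4.3.3) on the deposited log2 values of all 29 libraries, with 1 mean per group and Benjamini-Hochberg adjustment over the 19387 genes with a normalized count of at least 10 in at least 4 libraries. The threshold was 0.05. All adjusted p-values are from these fits, and differences are MCR minus LFD on the log2 scale. Since all groups share 1 estimate of spread, other groups bear on each p-value. Replicates carry distinct codes in the sample titles, taken as different animals, and no pair of libraries within a group agreed within sampling noise. Named genes were, per direction, up to 12 with the largest called difference at a mean count of at least 50, up to 8 from each covariate fit, up to 4 with the smallest p per list with a call, and a fixed set of markers and readouts. Gene models without a name were counted only, and some genes that the rule names are not reported here. Members and lists were chosen with earlier results of these data known. Gene positions are from GENCODE vM21 (92 of 93 named genes found), and promoters are from the RefSeq table of build GRCm38.p6. The script was tested on simulated data. Alternatives covered filters, scaling, voom, covariates, lane, quality weights, moderation and libraries left out.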

Additional observations from a re-analysis of the deposited data

Results flagged for a closer look

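Of 184 checks of a named gene within MCR or LFD, 17 had 1 library far from the rest of its group, judged by the gap to the nearest library as a share of the range. Chance gives about 1 in 20, and genes of one tissue component are not independent. Values are normalized counts. LFD library 1, the node-poor LFD library with the highest luminal mean, stood apart for Cyp2f2 (173), Sbk1 (545), Bcat2 (928), Ptprt (237), Lonrf2 (150), Glycam1 (7.79), Ccl21a (82.7) and Cd3e (68.1). MCR library 2, the node-rich MCR library, stood apart for Ppargc1a (434), Akr1cl (135), Kdr (3959), Ccl21a (16812) and Cd3e (2045). MCR library 4 stood apart for Thbs1 (23727), Oas1g (101), C4b (19673) and Atf3 (185).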

How the results depend on the processing

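Every one of the 57 genes kept its direction in each alternative in which it was tested, but their number was unstable, and the cause was not tested. The genes were chosen on these same libraries. For the 52 whose groups did not overlap, leaving out 1 library could not reverse the direction. For MCR against LFD (57), the count was 30 with no filter on low values, 125 with quantile normalization, 63 with voom on the recovered reads, 0 on the 9 libraries alone, 695 with Glycam1, 291 with Ccl21a, 624 with the B cell list, 514 with a 2-level B cell term, 0 without the 8 node-poor libraries (which leaves MCR library 2 alone, assumed to vary like the other groups), 0 with the luminal list, 12 with the muscle list, 18 with lane and 7302 with array quality weights. Leaving out 1 library gave 3 to 2747. For MCR against the mean of LFCR and ICR (11), the counts were 3 with no filter, 21 with quantile normalization, 0 on the compared groups alone, 944 with Glycam1, 406 with Ccl21a, 939 with the B cell list, 1229 with the 2-level term, 0 without node-poor libraries, 0 with muscle, 1164 with Glycam1 and luminal terms, 0 with lane and 4186 with quality weights. Leaving out 1 library gave 0 to 344. With Glycam1 (695) the count was 305 with lane, 0 on the 9 libraries alone, 63 with the luminal list as well, and 172 to 1122 leaving out 1 library. With Ccl21a (291) it was 88 with lane, 437 with voom, 0 on the 9 libraries alone, 0 with the luminal list as well, and 8 to 828 leaving out 1 library. Quality weights and the added luminal term in both covariate fits were chosen after seeing the data. Depth limits low genes most: Oas1g, for instance, had 49.3 to 101 counts in MCR. No paired analysis was possible because the labels give the groups no shared replicate numbers, so lane was fitted as a term.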
